A study of Mus musculus with 32 samples.

Results

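Insulin receptor signalling is represented here by the genes Insr, Irs1, Irs2, Pik3r1, Pik3ca, Akt1, Akt2, Foxo1, Foxo3 and Grb14. They were taken by name, after the Ensembl IDs of the count table had been matched to mouse symbols, and they are 10 of 47643 gene IDs measured. All 10 passed the filter on low counts in both tissues.

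Insulin binds its receptor on the cell surface, and the receptor phosphorylates docking proteins, the insulin receptor substrates. These recruit phosphoinositide 3-kinase, whose lipid product brings the kinase Akt to the membrane. Akt in turn keeps FoxO transcription factors out of the nucleus. In liver this chain restrains glucose production, and in adipose tissue it drives glucose uptake and restrains lipolysis. Glucocorticoids such as corticosterone (cort) are known to act against insulin in both tissues.

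The mice were male C57BL/6 animals (C57BL/6J in the study's methods), 10 weeks old, that received cort or the vehicle (veh, dilute ethanol) in their drinking water for 7 days. At the same time they ate a normal protein diet (NPD, 20% of kcal as protein) or a high protein diet (HPD, 60% of kcal), both of them purified diets of equal fat content in which protein took the place of starch. RNA of whole epididymal white adipose tissue (eWAT) and of whole liver was sequenced from the 3′ end of transcripts, with 4 libraries per group. Each tissue has the groups Veh NPD, Cort NPD, Veh HPD and Cort HPD, and all mice were fasted briefly before death, so that transcript levels refer to that state. One liver library, Veh HPD replicate 4, was left out by the rule that set these comparisons, which leaves 15 liver and 16 eWAT libraries. The study's RNA-seq figure gives a range of group sizes, and its principal components analysis gives 4 per group. The study names no library as left out, and the sources used here do not say whether this one was kept. Its values are scaled with the factors of all 16 liver libraries, and its 6 hepatocyte markers then summed to 30891 CPM (counts scaled to library size), below the other liver libraries. In whole tissue, fewer cells of a type and less RNA per cell cannot be told apart.

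Library totals lay between 8933307 and 18057936 counts. The tissues matched their labels: the summed level of 5 adipocyte markers was 24979 to 32842 CPM in eWAT and 21.0 to 84.3 in liver, and that of 6 hepatocyte markers was 54745 to 225962 CPM in the 15 liver libraries and 915 to 3996 in eWAT. The library eWAT Cort HPD replicate 4 held 4456 CPM of 5 epididymis markers, of which Spint4 was at 0 in every eWAT library, and the other eWAT libraries held at most 10.2. Liver Cort HPD replicate 1 had the lowest scaling factor of its tissue (0.754, others up to 1.11). Fkbp5, a glucocorticoid receptor target, rose with cort on the NPD in eWAT (log2 fold change 1.74 ± 0.39, SE, adjusted p = 0.0156) and in liver (2.23 ± 0.48, adjusted p = 0.00939). On the HPD its differences of 0.60 and 1.15 did not pass the test. The difference of its response between the diets was not called either, at -1.14 ± 0.54 in eWAT (adjusted p = 0.950) and -1.07 ± 0.67 in liver (adjusted p = 0.549). Of the other 4 receptor targets examined, none was called on the NPD in either tissue, and on the HPD 2 were called lower in each tissue, Sgk1 and Zbtb16 in eWAT and Per1 and Zbtb16 in liver.

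Levels are given as CPM after scaling within a tissue by trimmed mean of M-values (TMM). A gene was called when its adjusted p was under 0.05 in edgeR's quasi-likelihood test with Benjamini-Hochberg adjustment over all genes tested, 15187 in eWAT and 12391 in liver, and every adjusted p below is of that kind unless another tool is named. Within tissues, 6 calls were made on 5 of the 10 genes. Pik3ca, Akt1, Akt2, Irs1 and Irs2 were not called in any comparison within a tissue.

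Insr, Pik3r1, Foxo1 and Foxo3 are the genes whose response to cort differed most between diets in liver, as described further below. Their proximal promoters are shown for that reason, with the 250 bases before and the 50 bases after the RefSeq gene start on GRCm38.p6, for those with an entry in the sequence table. Insr was not among the 9 of 10 genes with an entry. The capitals mark GC boxes, the letters GGGCGG on either strand, which bind Sp1-type factors. In Foxo1, 2 of the boxes overlap. Foxo1 lies at chr3:52268087-52268386 on the plus strand, Foxo3 at chr10:42276646-42276945 on the minus strand and Pik3r1 at chr13:101768168-101768467 on the minus strand.
Foxo1: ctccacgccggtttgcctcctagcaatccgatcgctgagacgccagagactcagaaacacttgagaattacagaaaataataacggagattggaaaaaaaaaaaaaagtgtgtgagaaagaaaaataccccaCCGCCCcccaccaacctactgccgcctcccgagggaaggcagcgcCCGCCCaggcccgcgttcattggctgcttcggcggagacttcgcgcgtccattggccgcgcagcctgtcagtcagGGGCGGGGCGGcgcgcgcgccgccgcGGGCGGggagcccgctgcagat
Foxo3: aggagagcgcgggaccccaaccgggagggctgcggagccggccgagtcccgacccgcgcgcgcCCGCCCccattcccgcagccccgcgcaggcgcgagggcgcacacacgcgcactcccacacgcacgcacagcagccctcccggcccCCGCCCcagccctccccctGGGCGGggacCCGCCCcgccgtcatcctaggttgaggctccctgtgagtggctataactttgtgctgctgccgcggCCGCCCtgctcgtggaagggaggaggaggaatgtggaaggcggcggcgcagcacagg
Pik3r1: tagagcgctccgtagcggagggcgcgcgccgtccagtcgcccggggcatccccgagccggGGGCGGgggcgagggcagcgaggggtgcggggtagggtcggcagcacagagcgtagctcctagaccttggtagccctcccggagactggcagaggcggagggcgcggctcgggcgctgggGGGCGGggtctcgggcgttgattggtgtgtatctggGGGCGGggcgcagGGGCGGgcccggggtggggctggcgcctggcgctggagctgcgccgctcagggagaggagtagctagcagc

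The windows of Foxo1 and Foxo3 each held 5 GC boxes and that of Pik3r1 held 4, where 35.7% of the 32851 windows of this length held at least 1. Their GC contents were 61.3%, 75% and 75.7%, against a median of 52.7% over all windows. Neither trait was particular to these genes. Grb14 held 5 boxes (75.3% GC), the second window of Akt1 5 (79.7%), Irs1 2 (71.3%) and Irs2 1 (72%). Pik3ca and the first window of Akt2 held 1 each (63.3% and 50% GC). The window of a second Pik3r1 start held 0 boxes at 43.7% GC. The FoxO core GTAAACA occurred in 3.65% of windows and, among those of the members, once, in the first of the windows of Akt1. The alternative core GCAAACA occurred in 5.07% of windows and the full glucocorticoid receptor site, in which GNACA and TGTNC stand 3 bases apart, in 0.475%, and neither was found in a member window. The E-box CACGTG, found in 7.15% of windows, occurred once each in Irs1 and Irs2, and the TATA box TATAAA, found in 13.6%, occurred in the window of a second Pik3r1 start. All motifs were searched on both strands. A match of letters is a description of the window and not a binding site.

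**Figure D1:**
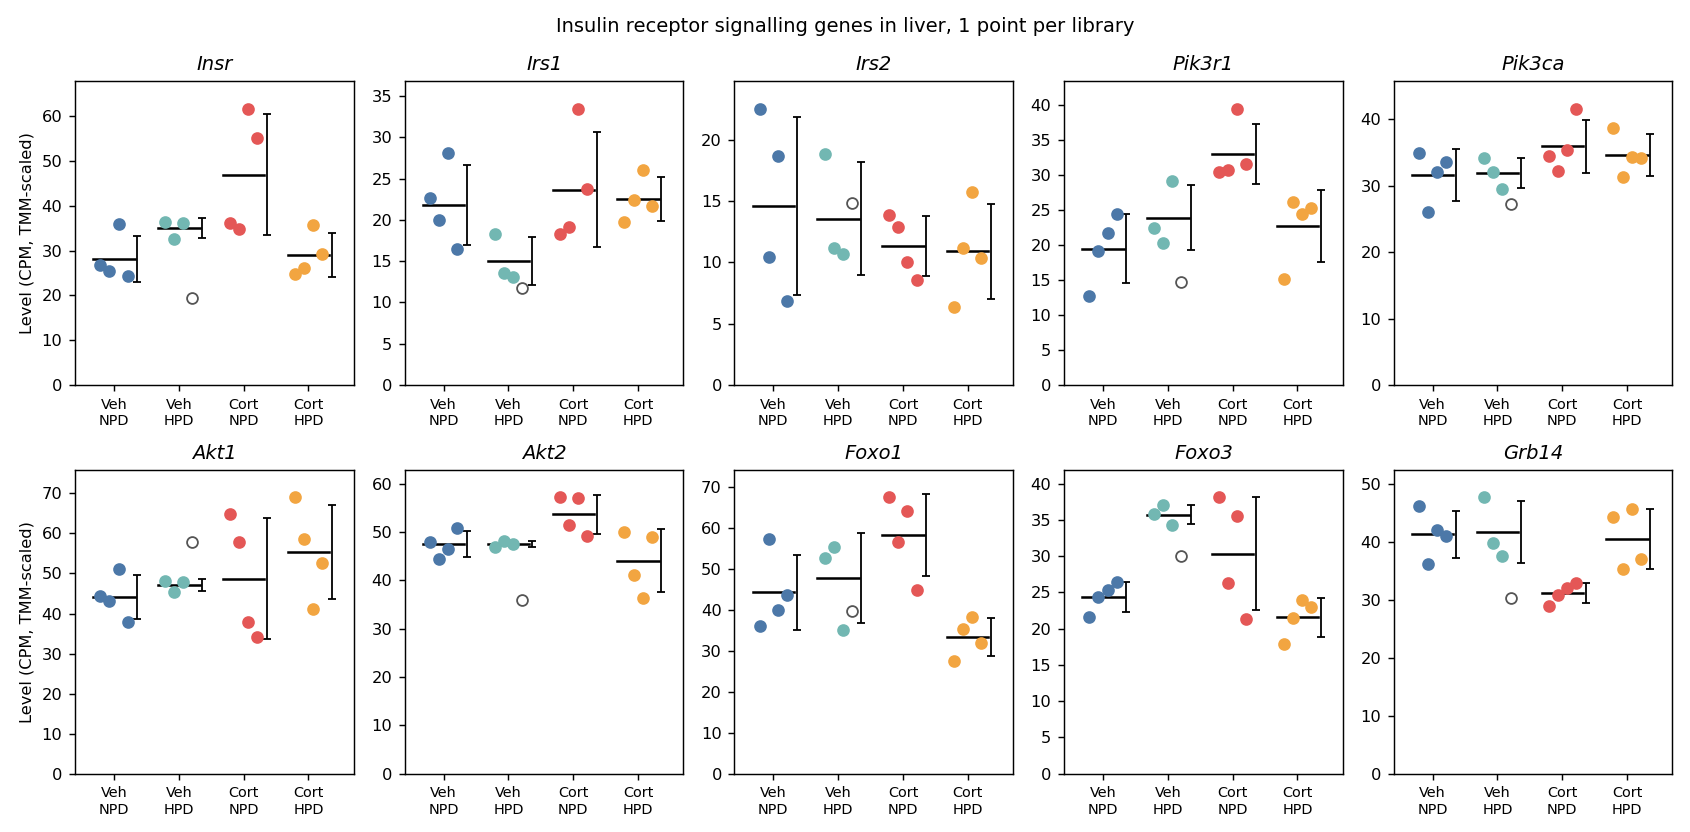
Level of each gene in liver (y axis, CPM after TMM scaling) for the 4 groups (x axis), with 1 point per library, a line at the group mean and a bar of ± 1 SD. The open point is the omitted library Veh HPD replicate 4. Foxo1 in the 4 Cort HPD libraries (27.6 to 38.3 CPM) lies below all Cort NPD libraries, and Foxo3 in Cort HPD (17.9 to 23.9 CPM) lies below the 3 Veh HPD libraries used.

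Insr encodes the insulin receptor itself (ENSMUSG00000005534, chr8:3122061-3279617, minus strand, GRCm38). In liver the 4 Veh NPD libraries had 26.9, 25.5, 35.8 and 24.4 CPM, and the 4 Cort NPD libraries had 36.2, 34.9, 61.7 and 55.1. The groups overlapped slightly, since the highest veh library stood above the lowest cort library. Insr rose with cort on the NPD, by 0.74 ± 0.19 on the log2 scale (SE, 1.67-fold, adjusted p = 0.0103). Without Cort NPD replicate 3, the highest of its group, the adjusted p was 0.0621 and the difference 0.57. On the HPD, Insr was at 36.3, 32.5 and 36.3 CPM in the 3 veh libraries and at 24.8, 26.1, 35.7 and 29.3 in the cort libraries, a difference of -0.27 that did not pass the test.

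With cort present, hepatic Insr was lower in the HPD group than in the NPD group, by -0.70 ± 0.18 (0.617-fold, adjusted p = 0.0279), although 1 Cort HPD library overlapped with the Cort NPD group. This call was the less stable of the 2 made in that comparison. It was kept in 10 of 15 fits that left out 1 library and lost without Cort NPD replicate 3 or 4 or Cort HPD replicate 1, 2 or 4, with adjusted p-values up to 0.132. It was also lost when only the groups compared were fitted (-0.69, adjusted p = 0.0587) and when all 16 liver libraries were fitted (-0.69, adjusted p = 0.0963). In veh-treated mice Insr had a mean of 28.2 ± 5.2 CPM (SD, n = 4) on the NPD and 35.0 ± 2.2 (n = 3) on the HPD.

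In eWAT, Insr showed another pattern. The Veh NPD libraries had 53.0, 43.0, 46.1 and 48.7 CPM and the Veh HPD libraries had 70.4, 80.1, 71.1 and 74.6. All 4 HPD libraries stood above all NPD libraries. The difference of 0.63 ± 0.13 (1.55-fold) had the smallest p of any member in the 4 comparisons of that tissue (4.41e-05) and ranked as number 10 of 15187 genes, yet its adjusted p was 0.0577. Leaving out 1 library at a time gave adjusted p-values of 0.0307 to 0.160. DESeq2 (adjusted p = 0.00139) and limma voom (0.0253) called it. Under cort the diets overlapped, at 50.9 to 65.4 CPM on the NPD and 56.4 to 81.0 on the HPD. The 3 genes whose log2 CPM followed Insr most closely over the 16 eWAT libraries were Cul1 (Pearson r = 0.877), Bap1 (0.820) and Rhobtb1 (0.815), given as a description of libraries that share their groups.

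Irs1 and Irs2 encode the docking proteins that the receptor phosphorylates, and Irs2 is the form tied most closely to fasting and feeding in liver. Irs1 (ENSMUSG00000055980, chr1:82233101-82291416) was at 18.3, 13.6 and 13.1 CPM in liver Veh HPD and at 19.8, 22.4, 26.1 and 21.7 in Cort HPD. These groups did not overlap, as held for 21.2% of all genes tested there. The difference of 0.58 ± 0.22 had an adjusted p of 0.0934, and with the omitted veh library included, which had 11.8 CPM, it was 0.68 with an adjusted p of 0.0436. Irs1 was also lower in Veh HPD than in Veh NPD liver (16.5 to 28.0 CPM), by -0.54 ± 0.22 without passing the test (adjusted p = 0.419).

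In eWAT, Irs1 had 46.1 to 68.0 CPM in Veh HPD and 36.6 to 48.7 in Cort HPD, a difference of -0.40 ± 0.17 (adjusted p = 0.172). The estimates for cort on the HPD were thus of opposite sign in the tissues, and in the fit of both tissues the liver effect exceeded the eWAT effect by 0.95 ± 0.29 (95% CI 0.37 to 1.53, adjusted p = 0.0612 over 16482 genes). DESeq2 called this difference (adjusted p = 0.0219), and edgeR called it in 8 of 31 fits that left out 1 library. Irs2 (ENSMUSG00000038894, chr8:10984681-11008458) varied widely among liver replicates, from 6.85 to 22.5 CPM in Veh NPD alone, and 75 to 338 counts stood behind each library. Its 95% intervals in liver were wide, from -1.10 to 0.35 on the log2 scale for cort on the NPD and from -0.77 to 0.68 for the diet in cort, so that changes within them were not detectable here. In eWAT it lay between 53.3 and 128 CPM with overlap of all groups.

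Pik3r1 encodes the regulatory subunit of phosphoinositide 3-kinase and Pik3ca its catalytic subunit p110alpha. Pik3r1 (ENSMUSG00000041417, chr13:101680563-101768217) had 12.7, 19.1, 21.7 and 24.4 CPM in liver Veh NPD and 30.4, 30.6, 39.4 and 31.5 in Cort NPD. Every cort library stood above every veh library. Pik3r1 rose with cort on the NPD by 0.76 ± 0.20 (1.69-fold, adjusted p = 0.0137). Without Veh NPD replicate 1, the lowest library, the difference was 0.59 with an adjusted p of 0.0671, and the call was also lost without Cort NPD replicate 3. On the HPD the 3 veh libraries (22.4, 20.2 and 29.1 CPM) and the 4 cort libraries (15.1, 26.2, 24.4 and 25.3 CPM) overlapped, and the difference was -0.07 ± 0.21. Its sign turned to 0.081 without Cort HPD replicate 1, to 0.089 with all 16 liver libraries and to 0.10 with limma voom.

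In eWAT, Pik3r1 had 99.8, 152, 172 and 141 CPM in Veh NPD and 308, 179, 221 and 197 in Veh HPD. The diets did not overlap in veh-treated mice, as held for 4.28% of genes, and the difference of 0.68 ± 0.19 had an adjusted p of 0.20. With cort the order of the diets was the other way. Cort NPD libraries had 217, 134, 227 and 221 CPM and Cort HPD libraries 154, 175, 134 and 139.6, a difference of -0.41 ± 0.18 (adjusted p = 0.463). Cort therefore went with a difference of 0.50 ± 0.18 on the NPD (adjusted p = 0.110) and of -0.59 ± 0.18 on the HPD (adjusted p = 0.0641, groups apart). The interaction of diet and cort was -1.09 ± 0.26, rank 14 of 15187 genes by p (unadjusted p = 4.30e-04), with an adjusted p of 0.467. Without Cort NPD replicate 2, the low library of its group, it was -1.24 with an adjusted p of 0.0455, and the difference on the NPD was 0.65 with an adjusted p of 0.0209. DESeq2 gave 0.0556 for the interaction. The difference on the HPD was called in 3 of 16 fits that left out 1 library, and its adjusted p was 0.245 without Veh HPD replicate 1.

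Pik3ca (ENSMUSG00000027665, chr3:32397671-32468486) was among the steadiest of the 10 genes. It lay between 70.0 and 104 CPM over the 16 eWAT libraries and between 26.0 and 41.6 over the 15 liver libraries, and its groups overlapped in each comparison within a tissue. The group means in liver were 31.6 ± 3.9, 31.9 ± 2.3, 35.9 ± 4.0 and 34.6 ± 3.1 CPM (SD), in the order Veh on the NPD and the HPD, then Cort on the NPD and the HPD.

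Akt1 and Akt2 encode the kinases through which most metabolic effects of insulin run, with Akt2 the main form in liver and adipose tissue. Akt1 (ENSMUSG00000001729, chr12:112653821-112674884) lay between 89.3 and 120.4 CPM in eWAT and between 34.0 and 69.0 in liver. Akt2 (ENSMUSG00000004056, chr7:27591552-27640826) lay between 74.9 and 109 CPM in eWAT. In liver Akt2 was at 49.1 to 57.2 CPM in Cort NPD and at 36.3 to 50.1 in Cort HPD, a difference of -0.28 ± 0.13 that did not pass the test (adjusted p = 0.216). Among the alternatives run, library totals in place of TMM factors called it, at -0.46 (adjusted p = 0.0453). In eWAT the 4 group means of Akt1 were within 99.6 to 106 CPM and those of Akt2 within 84.4 to 97.8.

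Foxo1 and Foxo3 encode forkhead transcription factors that Akt inactivates, and hepatic Foxo1 is known for driving gluconeogenic genes. Foxo1 (ENSMUSG00000044167, chr3:52268336-52353221) had 67.5, 56.7, 64.0 and 45.0 CPM in liver Cort NPD and 27.6, 35.4, 38.3 and 32.0 in Cort HPD. No library of one group reached the other. With cort present, Foxo1 was lower in the HPD group by -0.81 ± 0.18 (0.572-fold, adjusted p = 0.00923), and this call was kept with each of the 15 libraries left out in turn (adjusted p up to 0.0360) and with all 16 libraries. Veh-treated mice showed no such gap, at 36.2 to 57.2 CPM on the NPD and 35.2 to 55.4 on the HPD. Cort itself went with 0.40 ± 0.18 on the NPD (adjusted p = 0.15) and with -0.52 ± 0.19 on the HPD (adjusted p = 0.0891). The latter was called without Veh HPD replicate 3 (-0.69, adjusted p = 0.0357).

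Foxo3 (ENSMUSG00000048756, chr10:42181841-42276755) had 35.8, 37.0 and 34.3 CPM in the 3 liver Veh HPD libraries and 17.9, 21.5, 23.9 and 22.9 in Cort HPD. The groups stood well apart, and the omitted veh library, at 30.1 CPM, would also lie above all cort libraries. Foxo3 fell with cort on the HPD by 0.73 on the log2 scale (SE 0.18, 0.604-fold, adjusted p = 0.0110). The call held with each library left out in turn (-0.78 to -0.65, adjusted p up to 0.0442) and when all 16 libraries were fitted (-0.65, adjusted p = 0.0203). On the NPD the veh libraries had 21.6, 24.3, 25.3 and 26.5 CPM and the cort libraries 38.1, 26.3, 35.6 and 21.4, so that the cort group spread on both sides of the veh group. The Veh HPD group also stood above Veh NPD without overlap, by 0.55 ± 0.18 (adjusted p = 0.274), and under cort the HPD group was at -0.49 ± 0.17 relative to the NPD (adjusted p = 0.0846, and 0.0320 without Cort NPD replicate 4). Over the 15 liver libraries, Foxo1 and Foxo3 had a Pearson r of 0.704, rank 74 among the 12390 other genes for Foxo1. The 3 genes closest to Foxo1 were Rnf169 (0.901), 1810055G02Rik (0.839) and Baiap2l1 (0.815).

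In eWAT, Foxo1 had 209, 175, 201 and 192 CPM in Cort NPD and 156, 158, 174 and 138 in Cort HPD. These groups did not overlap, as held for 6.66% of genes, and the difference of -0.31 ± 0.14 did not pass the test (adjusted p = 0.463). Foxo3 was at 38.9 to 55.2 CPM in eWAT Veh HPD and at 34.1 to 37.6 in Cort HPD, also without overlap, with a difference of -0.34 ± 0.15 (adjusted p = 0.222).

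Marker levels of other cell types moved with the liver groups in which the FoxO genes differed. The sum of 6 hepatocyte markers was 123668 to 225962 CPM in Cort HPD, 83791 to 106835 in Cort NPD, 61568 to 92002 in Veh NPD and 54745 to 64989 in Veh HPD. The sum of 6 macrophage markers was 183 to 231 CPM in Veh NPD and 155 to 197 in Veh HPD, against 72.2 to 146 in Cort NPD and 85.7 to 169 in Cort HPD. The sum of 5 endothelial markers was 37.4 to 53.0 CPM in Cort HPD and 57.5 to 102 in Cort NPD. The sum of 4 red blood cell markers was 4621 to 6531 CPM in Cort HPD, above the other liver groups (1189 to 3157). The part of these shifts in the results on Foxo1, Foxo3, Insr and Pik3r1 was not tested. Scaling bears on size, since the mean log2 TMM factor differed by -0.24 between the groups compared for cort on the HPD and by -0.18 for the diet in cort. With library totals, Foxo1 (-0.74) and Foxo3 (-0.95) were both called for cort on the HPD, and Foxo1, Foxo3, Insr and Akt2 for the diet in cort.

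Grb14 encodes an adaptor that binds the activated receptor and inhibits its kinase, and so acts as a brake. In eWAT, Grb14 (ENSMUSG00000026888, chr2:64912476-65024987) had 16.2, 24.4, 27.4 and 28.9 CPM in Veh NPD and 11.1, 13.6, 10.6 and 15.2 in Cort NPD. The groups did not overlap. Grb14 fell with cort on the NPD by 0.94 on the log2 scale (SE 0.27, 0.52-fold, adjusted p = 0.0302). The call was kept in 10 of 16 fits that left out 1 library, with adjusted p-values of 0.0102 to 0.101 over all of them. It was lost without Veh NPD replicate 2, 3 or 4 and without Cort NPD replicate 1, 2 or 3. On the HPD the veh libraries had 15.4, 29.2, 38.1 and 13.8 CPM and the cort libraries 19.1, 17.6, 17.5 and 11.5, a difference of -0.56 ± 0.27 (adjusted p = 0.258). The sum of 5 fibroblast and progenitor markers also differed between these eWAT groups, at 3501 to 4139 CPM in Veh NPD and 2179 to 2357 in Cort NPD, and its part in the Grb14 result was not tested.

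In liver, Grb14 had 46.1, 36.2, 42.1 and 40.9 CPM in Veh NPD and 28.9, 30.8, 32.1 and 32.8 in Cort NPD. Here too every cort library was below every veh library, with a difference of -0.41 ± 0.14 and an adjusted p of 0.0551. DESeq2 (adjusted p = 0.0285), limma voom (0.0327) and the fit of the compared groups alone (0.0431) called it. Cort HPD libraries had 44.3, 35.2, 45.6 and 37.0 CPM, above all Cort NPD libraries, with a difference of 0.38 ± 0.14 (adjusted p = 0.107).

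**Figure D2:**
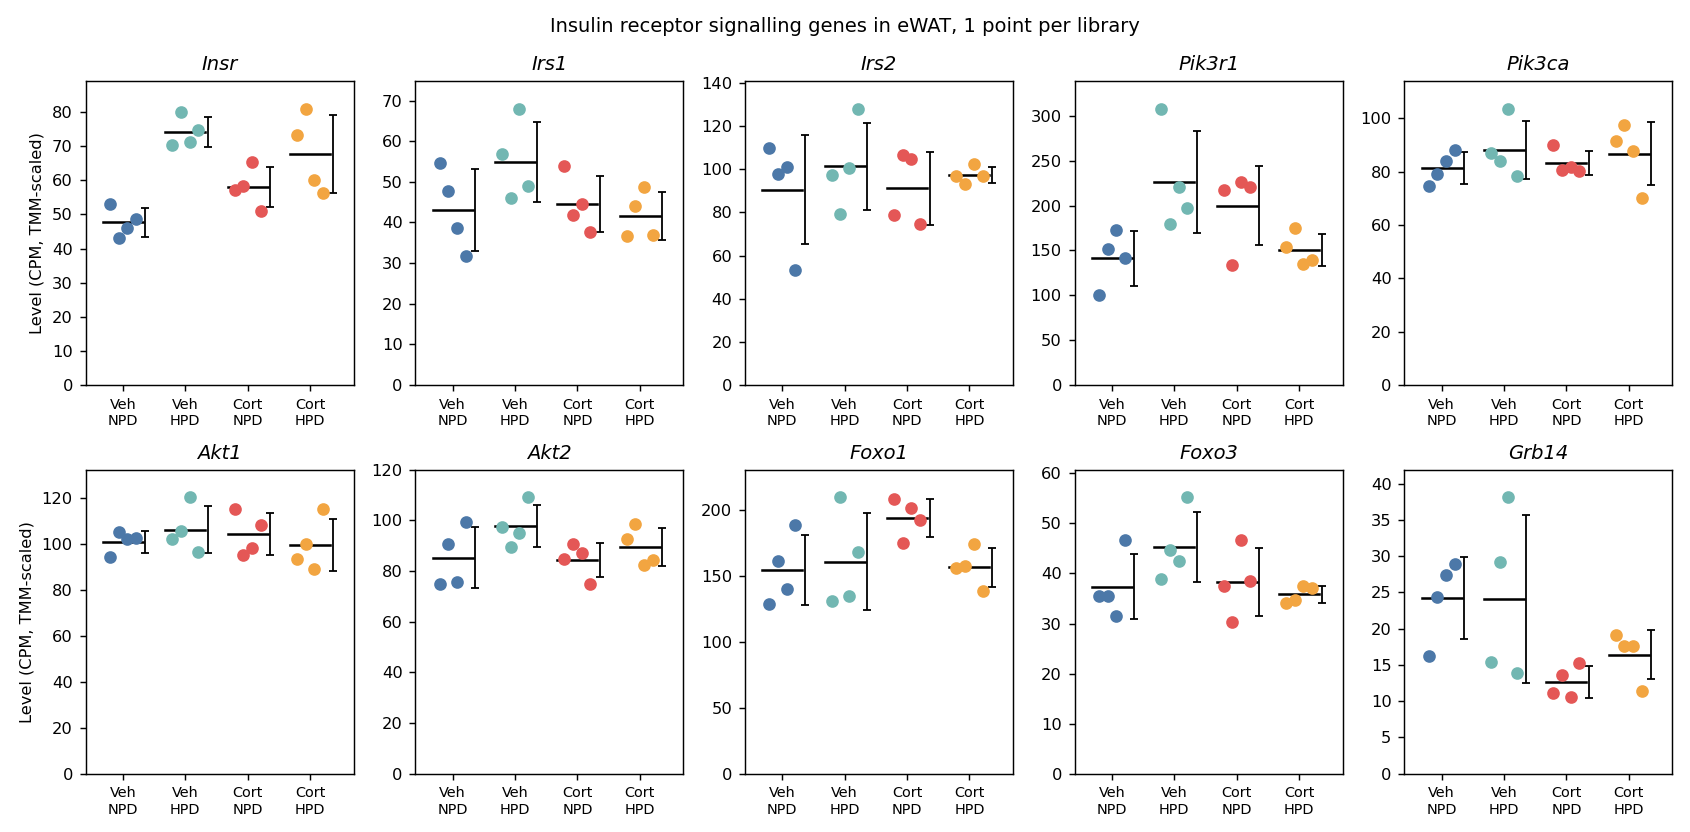
Level of each gene in eWAT (y axis, CPM after TMM scaling) for the 4 groups (x axis), with 1 point per library, a line at the group mean and a bar of ± 1 SD. Insr in the 4 Veh HPD libraries (70.4 to 80.1 CPM) lies above all Veh NPD libraries (43.0 to 53.0 CPM), and Grb14 in Cort NPD (10.6 to 15.2 CPM) lies below all Veh NPD libraries.

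The counts of members called by edgeR can be read against the share of all genes called in the same comparison. The shares given are those of this edgeR test, and none is given here for DESeq2 or the other alternatives. For cort on the NPD in liver, 2 of 10 members were called, both higher, against 12.6% of all genes in either direction and 6.84% higher. There 4 members had an unadjusted p under 0.05 against 26.7% of genes, and 2 had groups that did not overlap against 18.5% of genes. For cort on the HPD in liver, 1 member was called, lower, against 9.89% of genes in either direction and 5.14% lower, and 3 members against 24.3% of genes had an unadjusted p under 0.05. For the diet in cort-treated liver, 2 members were called, both lower, against 5.88% of genes in either direction and 2.8% lower. There 6 members had an unadjusted p under 0.05 against 21.3% of genes, and 3 had groups that did not overlap against 13.3% of genes. For the diet in veh-treated liver, 0 members were called against 0.169% of genes, with 2 members and 9.4% of genes at an unadjusted p under 0.05, and groups that did not overlap in 1 member, Foxo3, and 9.47% of genes. DESeq2 also called 0 members there.

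In eWAT, cort on the NPD gave 1 member called, lower, against 7.98% of genes in either direction and 3.93% lower. An unadjusted p under 0.05 was found for 4 members and 20.3% of genes, and groups that did not overlap for 1 member and 14.9% of genes. Cort on the HPD gave 0 members against 6.09% of genes, 4 members against 18.9% of genes had an unadjusted p under 0.05, and the groups of 2 members against 11.3% of genes did not overlap. All 10 members had estimates below 0 there, from -0.59 to -0.03, with a median of -0.13 against 0.00 for all genes. The share of all genes below 0 is not given here. These estimates share the Veh HPD group as reference. That group was itself above Veh NPD in 9 of 10 members, with a median of 0.18 against -0.003 for all genes. DESeq2 called 1 member for cort on the HPD, Pik3r1. The sum of 4 red blood cell markers was 11092 to 23050 CPM in eWAT Cort HPD and 3200 to 8230 in the other groups, and its part was not tested. Without eWAT Cort HPD replicate 4, the library with epididymis markers, edgeR again called 0 members there. The diet gave 0 called members in veh-treated eWAT against 0.0593% of genes, with 3 members and 8.03% of genes at an unadjusted p under 0.05, and DESeq2 called 2, Insr and Pik3r1. In cort-treated eWAT the diet gave 0 against 0.487% of genes, with 2 members and 9.81% of genes under 0.05 unadjusted, and DESeq2 called 0.

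**Figure D3:**
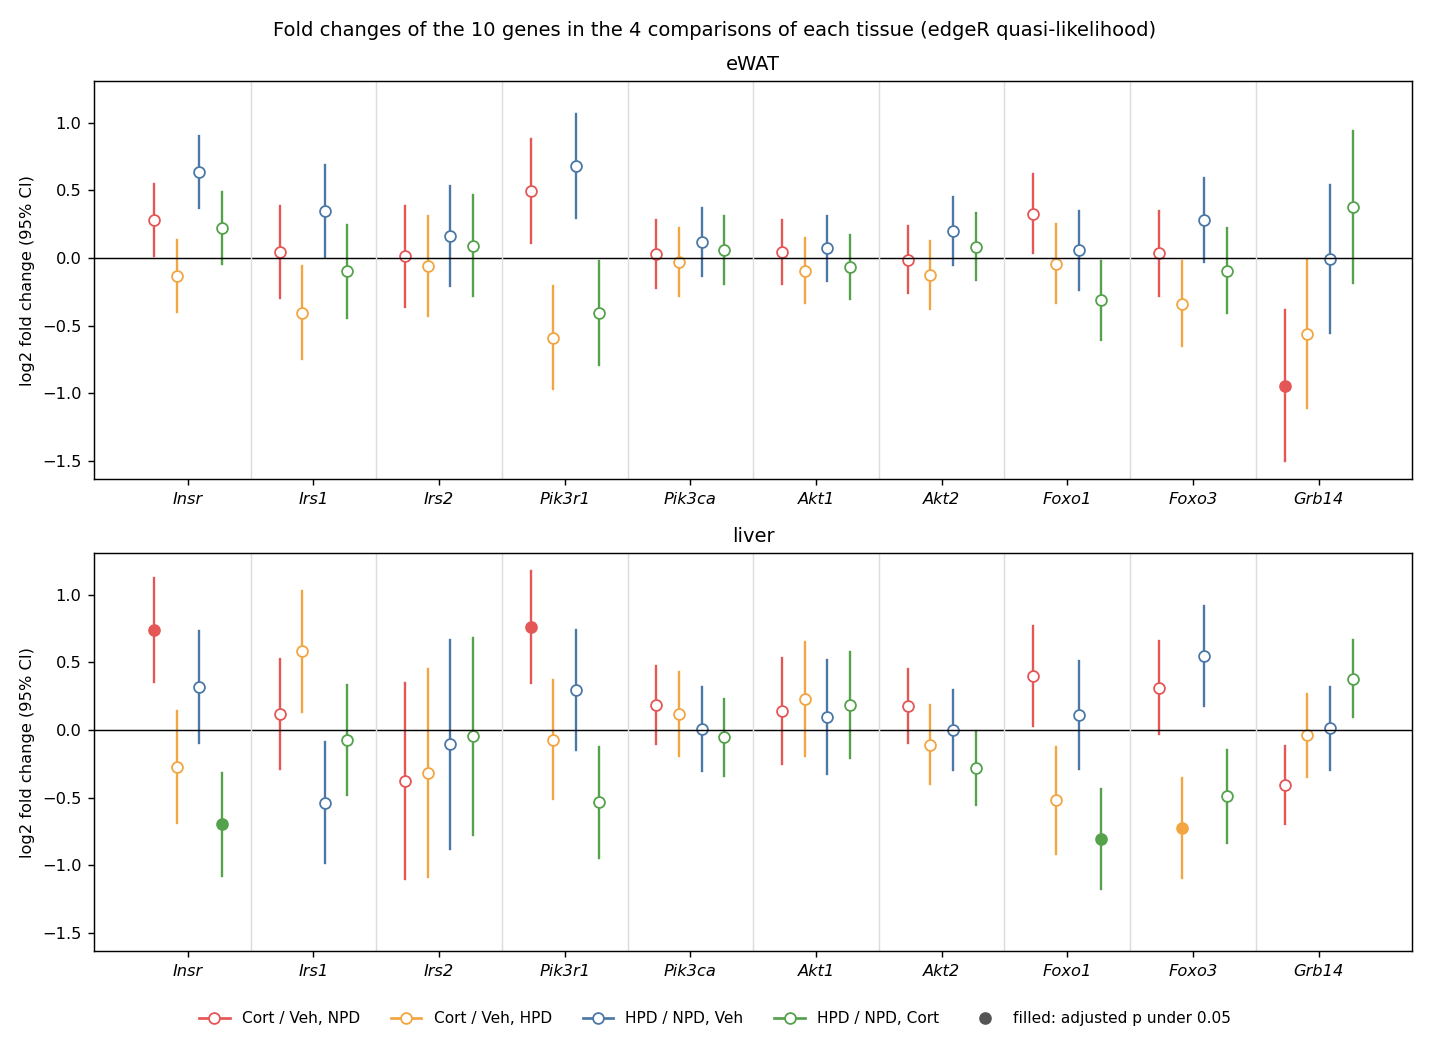
Log2 fold change (y axis) with its 95% confidence interval for each gene (x axis) in the 4 comparisons of eWAT (upper) and liver (lower), with filled points for an adjusted p under 0.05. The 6 filled points are Grb14 (-0.94) in eWAT, and Insr (0.74 and -0.70), Pik3r1 (0.76), Foxo1 (-0.81) and Foxo3 (-0.73) in liver.

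Whether the response to cort depended on the diet was tested as the interaction of both. In liver 4 members had an unadjusted p under 0.05, where 12.1% of all genes did, and in all 4 the response was higher on the NPD. The cort response of Foxo3 went from 0.31 on the NPD to -0.73 on the HPD, an interaction of -1.04 ± 0.24 (95% CI -1.55 to -0.53, adjusted p = 0.10). That of Insr went from 0.74 to -0.27, an interaction of -1.01 ± 0.27 (adjusted p = 0.147). That of Foxo1 went from 0.40 to -0.52, an interaction of -0.92 ± 0.26 (adjusted p = 0.174). That of Pik3r1 went from 0.76 to -0.07, an interaction of -0.83 ± 0.29 (adjusted p = 0.252).

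The edgeR test called 0 members for this interaction in liver, against 0.113% of all genes. DESeq2 called Foxo3 (adjusted p = 0.0206), and edgeR without the filter on low counts called Foxo3 (0.0282) and Insr (0.0376). Without liver Cort HPD replicate 1 the Foxo3 interaction was -0.96 (adjusted p = 0.112), and with all 16 libraries it was -0.97 (0.163). In eWAT 0 members were called against 0.0132% of genes, and Pik3r1 and Insr (-0.41 ± 0.18, adjusted p = 0.929) had an unadjusted p under 0.05, as did 5.16% of genes. DESeq2 also called 0 members in eWAT.

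**Figure D4:**
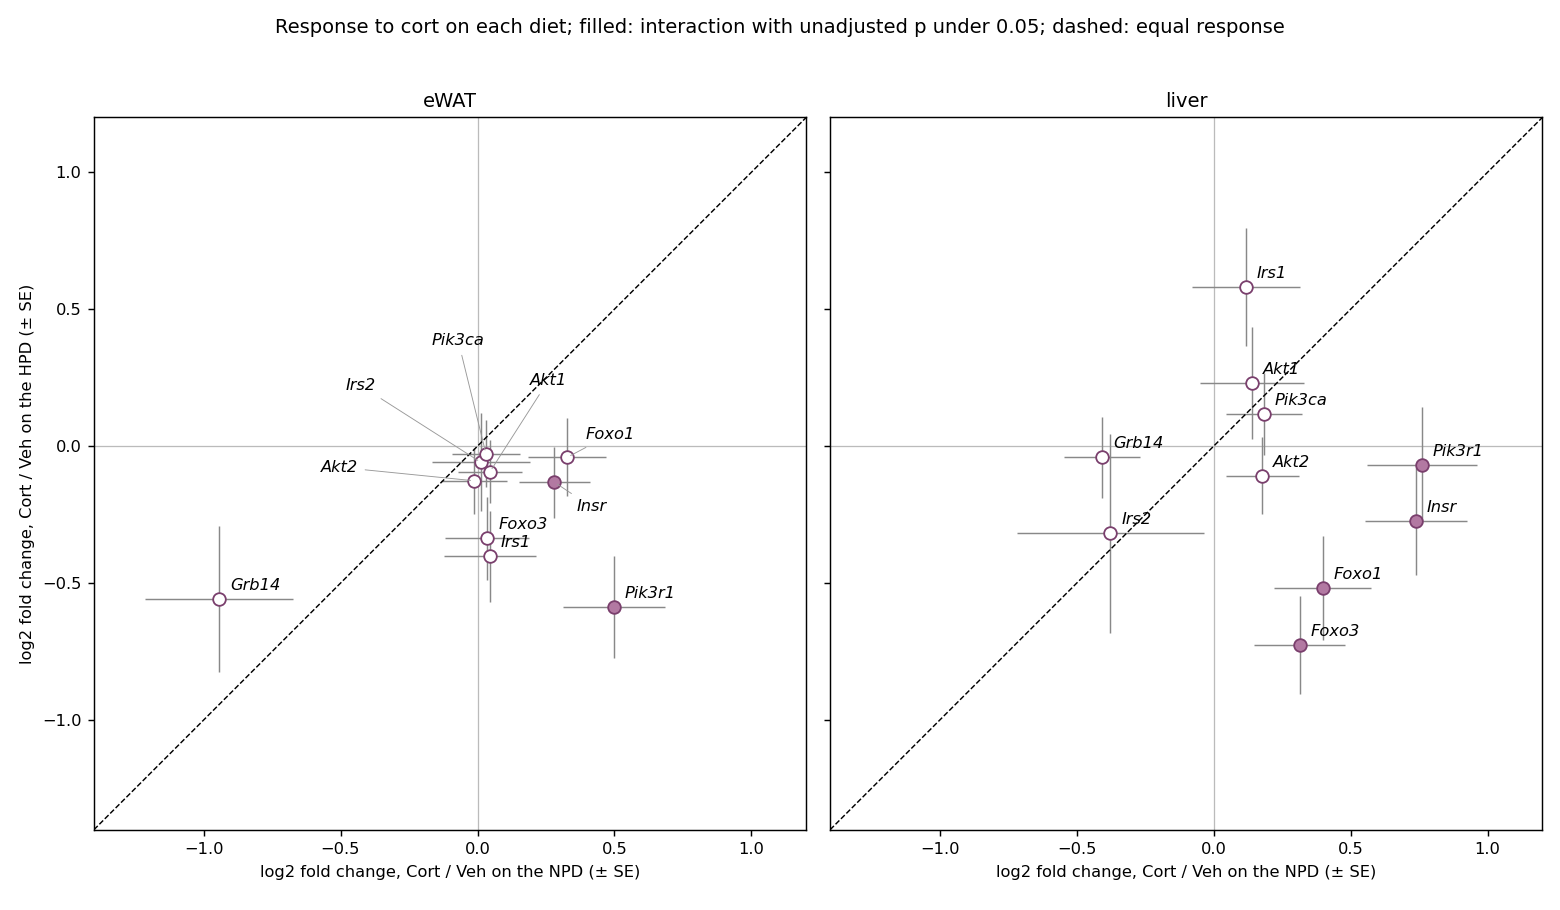
Log2 fold change of cort against veh on the NPD (x axis) and on the HPD (y axis) for each gene in eWAT (left) and liver (right), with bars of ± 1 SE and a dashed line of equal response. Filled points, with an unadjusted interaction p under 0.05, are Insr and Pik3r1 in eWAT and Insr, Pik3r1, Foxo1 and Foxo3 in liver, all below the dashed line.

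The response to cort was compared between the tissues in a fit of all 31 libraries. No member was called by edgeR, with 0 of 10 on the NPD against 3.85% of 16482 genes and 0 of 10 on the HPD against 3.12%. On the NPD 1 member, Insr (0.50 ± 0.23, adjusted p = 0.263), had an unadjusted p under 0.05, as did 16.5% of genes, and on the HPD 2 members did, Irs1 and Foxo1 (-0.52 ± 0.24, adjusted p = 0.293), as did 15.7% of genes. DESeq2 called 0 members on the NPD and 1, Irs1, on the HPD.

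The levels of the genes in the tissues themselves were compared in the Veh NPD groups, scaled over both tissues together. Grb14 was higher in liver than in eWAT (59.8 against 17.1 CPM on average, log2 difference 1.81 ± 0.22, adjusted p = 1.37e-08). Pik3r1 was lower in liver (28.2 against 99.5 CPM, -1.82 ± 0.21, adjusted p = 2.62e-09), and so were Irs2 (21.2 against 63.7 CPM, -1.59 ± 0.29), Foxo1 (63.9 against 109 CPM, -0.77 ± 0.17) and Pik3ca (45.8 against 57.3 CPM, -0.32 ± 0.13). Foxo3 was higher in liver by 0.43 ± 0.16 with TMM factors (adjusted p = 0.0207) and lower by -0.60 with library totals, so that its direction depended on the scaling. In all 6 of 10 members were called, 2 higher and 4 lower in liver, against 62.7% of genes in either direction, 29% higher and 33.7% lower. The same 6 members had an unadjusted p under 0.05, against 66% of genes, and the groups of 5 did not overlap, against 58.2% of genes. Leaving out 1 library kept 4 to 6 calls, with Foxo3 and Pik3ca both lost without eWAT Veh NPD replicate 3. Insr (0.28), Irs1 (0.05), Akt1 (-0.16) and Akt2 (0.19) were not called.

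The comparison of tissues depended on scaling. TMM factors over both tissues ranged from 0.518 to 1.52, and the mean log2 factor of the liver group was lower than that of the eWAT group, at a difference of -1.02. With library totals all 10 members were called, Grb14 higher in liver (0.79, adjusted p = 0.00322) and the other members lower. The median over all genes with TMM factors was -0.26.

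**Figure D5:**
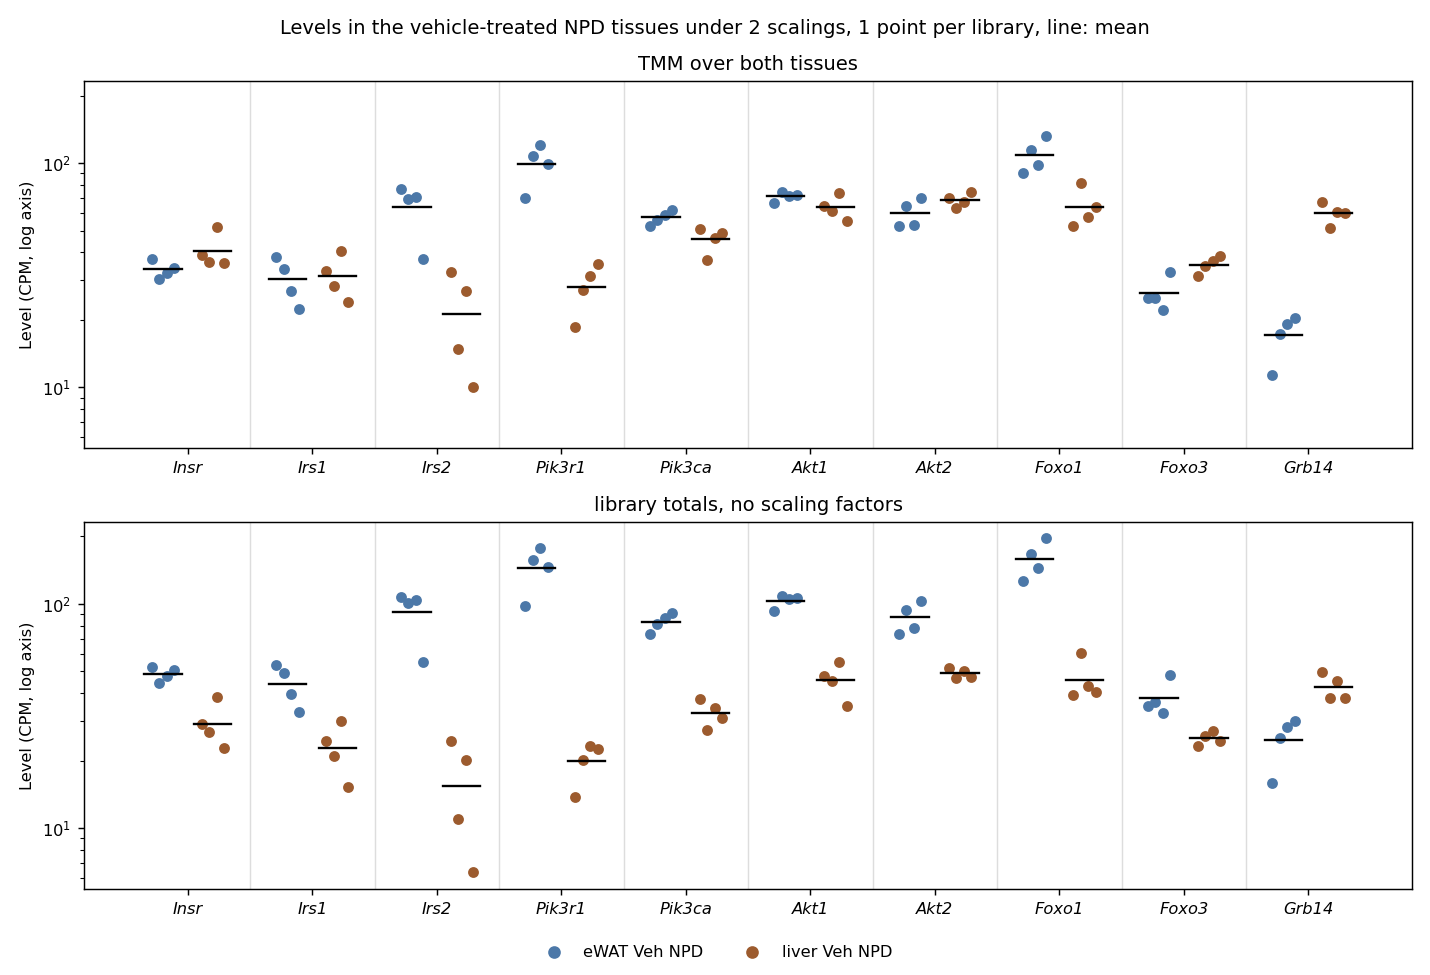
Level of each gene (y axis, CPM on a log axis) in the 4 eWAT and 4 liver libraries of the Veh NPD groups, with TMM scaling over both tissues (upper) and with library totals alone (lower), 1 point per library and a line at the mean. Grb14 is higher in liver in both panels and Pik3r1, Irs2, Foxo1 and Pik3ca lower, whereas Foxo3 (35.3 against 26.3 CPM above, 25.2 against 38.1 CPM below), Insr (40.7 against 33.6, then 29.3 against 48.6), Irs1 (31.5 against 30.3, then 22.7 against 43.8) and Akt2 (68.6 against 60.0, then 48.9 against 87.1) change sides.

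Beyond the 10 genes, 55 other genes of the pathway were counted in 5 lists of adaptors and substrates, brakes, phosphoinositide 3-kinase and Akt, Akt substrates and mTORC1, and Ras and MAPK. In eWAT, cort on the NPD gave 5 higher and 0 lower of 54 tested, where 7.98% of all genes were called, with a median log2 change of 0.12 against -0.02 for all genes. Irs3, a substrate found in rodent adipose tissue, rose, with 10.5 to 22.7 CPM in the 4 veh libraries and 36.0 to 46.8 in the 4 cort libraries (log2 change 1.31 ± 0.22, adjusted p = 3.52e-04). Slc2a4, the insulin-responsive glucose transporter GLUT4, rose as well, with 60.5 to 86.3 CPM in the veh libraries and 141 to 202 in the cort libraries (log2 change 1.14 ± 0.20, adjusted p = 0.00120). Hras, a small GTPase, rose from 51.4 ± 3.3 to 82.8 ± 7.1 CPM (SD, n = 4, log2 change 0.69 ± 0.12, adjusted p = 3.52e-04).

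Cort on the HPD gave 4 higher and 0 lower of 54 in eWAT, where 6.09% of all genes were called, with a median of 0.11 against 0.00. Irs3 rose from 14.2 ± 5.0 to 38.4 ± 7.2 CPM (1.44 ± 0.22, adjusted p = 1.59e-04) and Hras from 39.9 ± 3.8 to 62.0 ± 3.3 CPM (0.64 ± 0.12, adjusted p = 0.00111). Irs3, Hras and Pik3cb, a catalytic subunit of phosphoinositide 3-kinase, were called on both diets. Slc2a4 was not called on the HPD, at 72.6 to 164 CPM in veh and 122 to 151 in cort (0.44 ± 0.20, adjusted p = 0.241). Its interaction of diet and cort in eWAT was not called either (-0.70 ± 0.29, adjusted p = 0.912). The diet alone gave 0 of 54 in veh-treated eWAT, against 0.0593% of all genes, and 0 of 54 in cort-treated eWAT, against 0.487%.

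In liver, cort on the NPD gave 3 higher and 0 lower of 53 tested, where 12.6% of all genes were called and 6.84% were higher, with a median of 0.10 against -0.01 for all genes. Pik3cb rose from 5.93 ± 0.60 to 11.2 ± 4.1 CPM (0.91 ± 0.23, adjusted p = 0.0101). Slc2a4 was called higher, at 0 to 0.761 CPM in veh and 0.308 to 5.22 in cort, low levels in groups that overlapped. The third was Inppl1, a lipid phosphatase (27.8 ± 3.0 to 39.1 ± 5.6 CPM). Cort on the HPD gave 3 higher and 3 lower of 53, where 9.89% of all genes were called and 5.14% were lower, with a median of 0.03 against 0.00. Pde3b, the phosphodiesterase through which insulin lowers cyclic AMP, rose from 45.3 ± 6.9 to 65.8 ± 5.0 CPM (0.54 ± 0.14, adjusted p = 0.0201). Pik3r3, another regulatory subunit of phosphoinositide 3-kinase, rose from 0.354 ± 0.088 to 2.06 ± 0.86 CPM (adjusted p = 0.00460). These were low levels. Its Veh HPD group was the low one, since Veh NPD had 1.04 ± 0.68 CPM and Cort NPD 2.14 ± 0.67. Of the 3 called lower, Trib3 is a pseudokinase that can bind Akt (-1.90 ± 0.55, adjusted p = 0.0479). Its groups overlapped, at 10.7 to 88.0 CPM in the 3 veh libraries (median 20.3) and 7.04 to 13.6 in the cort libraries. The others were Ptprf, a phosphatase that can act on the receptor (-0.59 ± 0.16, adjusted p = 0.0229), and Pik3cd, the catalytic subunit found mostly in leukocytes (-1.51 ± 0.43, adjusted p = 0.0295).

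The diet in cort-treated liver gave 1 higher and 1 lower of 53, where 5.88% of all genes were called. Ptprf was lower on the HPD (83.8 ± 15.2 against 121 ± 7 CPM, -0.53 ± 0.15, adjusted p = 0.0418). In veh-treated liver the diet gave 0 of 53, where 0.169% of all genes were called.

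Downstream genes were counted in 2 further lists. Of 9 FoxO factors and FoxO1 target genes, 8 were tested in liver. There 0 were called for cort on the NPD, against 12.6% of all genes, and 1 for cort on the HPD, against 9.89%. That one was G6pc, the catalytic subunit of glucose-6-phosphatase, which rose from 195 ± 53 to 439 ± 154 CPM (1.17 ± 0.26, adjusted p = 0.00594) in the comparison in which Foxo3 fell. Its Veh HPD group was the low one, since Veh NPD had 384 ± 81 CPM and Cort NPD 395 ± 60, and the diet in veh went with -0.98 ± 0.25 (adjusted p = 0.147). Pck1, the cytosolic phosphoenolpyruvate carboxykinase, had group means of 1450 to 1606 CPM in liver and was not called. Of 4 insulin-induced genes, Srebf1, the lipogenic transcription factor, fell with cort on the NPD from 26.1 ± 11.5 to 10.9 ± 3.5 CPM (adjusted p = 0.0181). In eWAT, Pnpla3, a lipid droplet protein, rose with cort by 0.83 ± 0.21 on the NPD and by 1.49 ± 0.21 on the HPD. With cort in eWAT, 0 of 7 FoxO list genes were called on the NPD, against 7.98% of all genes, and 0 of 7 on the HPD, against 6.09%. Nr3c1, the receptor for cort, was not called in either tissue, with differences of -0.29 and -0.27 in eWAT and of -0.32 and -0.10 in liver on the NPD and HPD.

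Of the 10 genes, 4 overlap a gene on the opposite strand in the annotation. These are Gm16180 and the pseudogene Vmn2r-ps88 at Insr, Gm9747 at Irs1, 9530052E02Rik at Irs2 and Gm20402 at Foxo1. On the same strand, Gm36638 overlaps Pik3r1, Gm37123 Pik3ca, Mir6939 Akt1 and Gm38034 Foxo1. The strand setting of the counting is not given in the sources used here, so reads of the opposite-strand pairs cannot be told apart. How reads in the same-strand overlaps were assigned is not given either.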

How the data were processed

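The authors deposited 1 table of raw counts, with a row per Ensembl gene and a column per library, made from 3′ mRNA-Seq (QuantSeq) reads without normalization. The submitters' notes name GRCm38, mm10, R 4.0.3 and limma, while the aligner, the counting program and its strand setting are not given in the sources used here. Groups were taken from the sample titles. Of 47643 gene IDs, 47224 had a symbol in GENCODE M21, 419 had none and 22199 had no count.

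Tests used edgeR 4.0.16 in R 4.3.3 (filterByExpr with a minimum count of 10 and a minimum total of 15, TMM factors, robust quasi-likelihood test), fitting all groups of a tissue at once and, for comparisons between tissues, all 31 libraries. CPM values are counts divided by the TMM-scaled library size. A Benjamini-Hochberg adjusted p under 0.05 was called, and intervals are at 95%. The alternatives were RLE factors, library totals, DESeq2 1.42.0, limma 3.58.1 voom with sample quality weights, no filter, only the groups compared, all 16 liver libraries, omission of single libraries, and the replicate number as a block. The fits were tested on simulated data with 200 altered genes and a log2 change of 2. That change is larger than any of a member within a tissue, so the power at the sizes reported was not assessed.

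The members and the lists were chosen with earlier results of these data known. For each comparison, at most 3 called list genes per direction were named, by their p-values, with Nr3c1, and for the member of smallest p in each tissue the 3 genes of highest Pearson r. Pck1, Inppl1, Trib3, Pik3cd and Ptprf in liver with cort, the overlapping genes, and Fkbp5, Pik3cb and Pnpla3 in eWAT where outside that rule, were named after their values were seen. Some list genes that the rule names are not reported here. The sources do not say which libraries came from the same mouse. The p-values judge a difference against the spread between libraries within groups, estimated over all groups fitted. Over 48 pairs of libraries of the same group, 0 held identical counts, and the chi-squared statistic per gene was 15.3 to 207. Each member had at least 75 counts in every library used.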

Additional observations from a re-analysis of the deposited data

Results flagged for a closer look

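Over 70 sets of 4 libraries, 1 for each member and group, 4 held a library far from the other 3 of its group by Dixon's criterion at 95%, and chance alone flags about 1 in 20 sets. Pik3r1 accounted for 3 of them. In eWAT Cort NPD, replicate 2 had 134.0 CPM of Pik3r1 where the others had 217 to 227. In liver Cort NPD, replicate 3 had 39.4 CPM where the others had 30.4 to 31.5. In liver Cort HPD, replicate 1 had 15.1 CPM where the others had 24.4 to 26.2. Pik3ca in eWAT Cort NPD was at 89.8 CPM in replicate 1 and at 80.3 to 81.7 in the others.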

How the results depend on the processing

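With library totals, the members called numbered 1 for the diet in veh-treated eWAT, 2 for cort on the HPD in liver, 4 for the diet in cort-treated liver and 10 for liver against eWAT, where the log2 difference of Foxo3 reversed to -0.60. With DESeq2 they numbered 1 for cort on the HPD in eWAT, 2 for the diet in veh-treated eWAT, 1 for the liver interaction and 1 for the tissue difference of cort on the HPD. Limma voom gave 1 for cort on the HPD in eWAT, 1 for the diet in veh-treated eWAT and 0.10 for Pik3r1 with cort on the HPD in liver. Without the filter they numbered 1 for the diet in veh-treated eWAT and 2 for the liver interaction. With only the groups compared, 1 was called for cort on the HPD in eWAT and 1 for the diet in cort-treated liver. With all 16 liver libraries, 2 were called for cort on the HPD in liver, 1 for the diet in cort-treated liver and 1 for the tissue difference on the HPD, and Pik3r1 with cort on the HPD in liver was 0.089. RLE factors gave 1 for that tissue difference. For cort on the NPD in liver, DESeq2, limma voom and the groups compared each called 3 members, Insr, Pik3r1 and Grb14. The causes were not tested. The shares of all genes called under these alternatives are not given here, so the counts of members cannot be read against them.

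Leaving out 1 library at a time gave 0 to 1 member called for cort on the NPD, for cort on the HPD, for the diet in veh-treated mice and for the interaction in eWAT. In liver it gave 0 to 3 for cort on the NPD, 1 to 2 for cort on the HPD and 1 to 2 for the diet in cort-treated mice, and 0 to 1 for the tissue difference of cort on the HPD. The log2 difference of Pik3r1 with cort on the HPD in liver ranged from -0.16 to 0.10. Cort on the NPD in liver gave 0 called without Cort NPD replicate 3 and 1 without Veh NPD replicate 1.

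The replicate block changed no count of called members: 1 for cort on the NPD in eWAT, 2 and 1 for cort on the NPD and HPD in liver, 2 for the diet in cort-treated liver, 6 for liver against eWAT and 0 elsewhere. Pearson r was computed for the deviations from the group means between libraries with the same replicate number. The values were -0.12 to 0.25 in eWAT (1 of 24 pairs over 0.1), -0.13 to 0.16 in liver (3 of 21) and -0.00 to 0.06 between the tissues (0 of 15). With different numbers they were -0.18 to 0.22, -0.22 to 0.20 and -0.05 to 0.04. Within tissues the medians for the same and for different numbers were -0.012 and 0.004 in eWAT and -0.017 and 0.001 in liver. Between the tissues the median was 0.015 for the same number and -0.007 for different numbers. These small values do not settle whether libraries with the same number share a mouse.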
